A study of Mus musculus with 64 samples.

Results

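The colon of conventionally colonised mice was sampled at 4 times of day after injections of phosphate-buffered saline (PBS), and 16 of the 64 RNA-seq libraries of the series belong to this set. The 16 libraries were chosen by their labels: specific-pathogen-free (SPF, carrying a normal gut flora), PBS, and zeitgeber time (ZT) 5, 11, 17 or 23, with 4 libraries at each time. Zeitgeber time counts hours from lights on, so ZT5 and ZT11 fall in the 12 h of light and ZT17 and ZT23 in the 12 h of dark, when mice are active and feed. The animals were wild-type Swiss Webster mice of 8 to 12 weeks on standard chow. Every group used here was injected intraperitoneally with 100 µl, 2 times on each of 3 days and 1 more time on the next day. The hour of that last injection relative to tissue collection is not given, and neither are sex, cage or litter. Flash-frozen whole colon was extracted, so epithelium, muscle, nerve, fat and lymphoid follicles all contribute RNA. The other sets used for comparison were SPF colon after 2.5 mg vancomycin in the same volume and germ-free (GF) colon after PBS, each with 16 libraries at the same 4 times. The labels number the libraries of a group 1 to 4 without saying that each is a separate mouse, so the p-values cover the spread among libraries, which may be technical.

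Nearly every mammalian cell holds a clock in which BMAL1 (gene symbol Arntl in the files) pairs with CLOCK or NPAS2 and switches on genes that carry an E-box, among them its own repressors of the PER and CRY families. REV-ERB proteins (Nr1d1, Nr1d2) repress Arntl through a DNA element that the ROR receptors use to activate it, and the PAR bZIP factors DBP, TEF and HLF compete with NFIL3 on D-box elements. In the colon such clocks are known in the epithelium, the muscle and the enteric nervous system, and feeding time, glucocorticoids and gut microbes are known inputs to them.

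The promoter elements through which this loop is known to act are shown for the clock genes whose promoter windows hold them and for the clock-linked Cipc. The other clock-linked genes with a match, Tspan4 (E-box) and Timeless (D-box), are not shown. RefSeq promoters of 300 bases (250 before and 50 after the start, build GRCm38.p6) were matched by symbol for 18 of the 21 tested clock genes and for 12104 of all 16938 genes tested. Searched on both strands were the E-box CACGTG, the D-box TTATGTAA or TTACGTAA, and the ROR response element (RORE). The matches, in capitals, do not overlap each other. The following E-boxes lay before the start of Ciart, Per1, Cry1, Bhlhe41, Tef (2 promoters) and Cipc, the D-boxes before that of Per3, and the ROR element after that of Arntl.
Ciart, chr3:95882257-95882354, minus strand: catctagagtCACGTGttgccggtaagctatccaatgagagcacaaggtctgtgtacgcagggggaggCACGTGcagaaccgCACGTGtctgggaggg
Per1, chr11:69098773-69098798, plus strand: cacccaagtcCACGTGcagggatgtg
Cry1, chr10:85185099-85185124, minus strand: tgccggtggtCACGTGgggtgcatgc
Bhlhe41, chr6:145865558-145865583, minus strand: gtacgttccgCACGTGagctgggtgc
Tef, chr15:81802536-81802561, plus strand: gctgtggctcCACGTGctgcagctgg
Tef, second promoter, chr15:81811266-81811291, plus strand: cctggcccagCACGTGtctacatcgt
Cipc, chr12:86947316-86947341, plus strand: cgagccgggcCACGTGactggcgaaa
Per3, chr4:151044806-151044880, minus strand: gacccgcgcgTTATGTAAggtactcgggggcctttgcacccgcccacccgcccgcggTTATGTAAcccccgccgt
Arntl, chr7:113207528-113207557, plus strand: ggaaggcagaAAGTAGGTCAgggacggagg
Of all 12104 genes with a matched promoter, 10.8% held the E-box, 1.02% the D-box and 0.322% the ROR element in any of their promoters. A match describes letters in a short window only. The windows of Nr1d1, Dbp, Npas2 and Nfil3 held no match, from which nothing follows about the factors.

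The libraries were deep and of similar size, with totals of 11395682 to 13590805 estimated counts. Colon identity was present in all 16: 12 colonocyte markers (among them Cdx1, Car1, Slc26a3 and Aqp8) summed to 13980 to 30404 CPM (counts scaled to library size). The level of smooth muscle markers, however, differed between the times. All 12 smooth muscle markers passed the time-of-day test by edgeR described below, as did 8.9% of all genes tested. Their summed level was 15115 to 18497 CPM at ZT5 and 12588 to 26769 at ZT11. It was 13316 to 15483 at ZT17 and only 6185 to 10243 at ZT23. The 4 ZT23 libraries thus lay below the other 12. Cnn1, a calponin of the contractile apparatus, averaged 1723 ± 637 CPM (SD, n = 4) at ZT11 and 445 ± 79.7 at ZT23. ZT11 replicates 3 and 4 had the highest mean log2 level of the muscle markers (10.7 in each) and the lowest of the distal colon Hox genes (3.07 and 3.14, against 3.87 to 4.92 in the other 14). In bulk tissue, more cells of a type and more RNA per cell cannot be told apart, and neither can the hour and the stretch of colon or depth of muscle sampled at that hour. Lymphoid follicle genes also ranged widely, from 1.66 to 5.91 in mean log2 CPM, but with ranges that overlapped at all 4 times, and 0 of 15 B cell markers passed the time-of-day test by edgeR (0 had an unadjusted p under 0.05 and at most 1 was called under any other setting run).

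**Figure D1:**
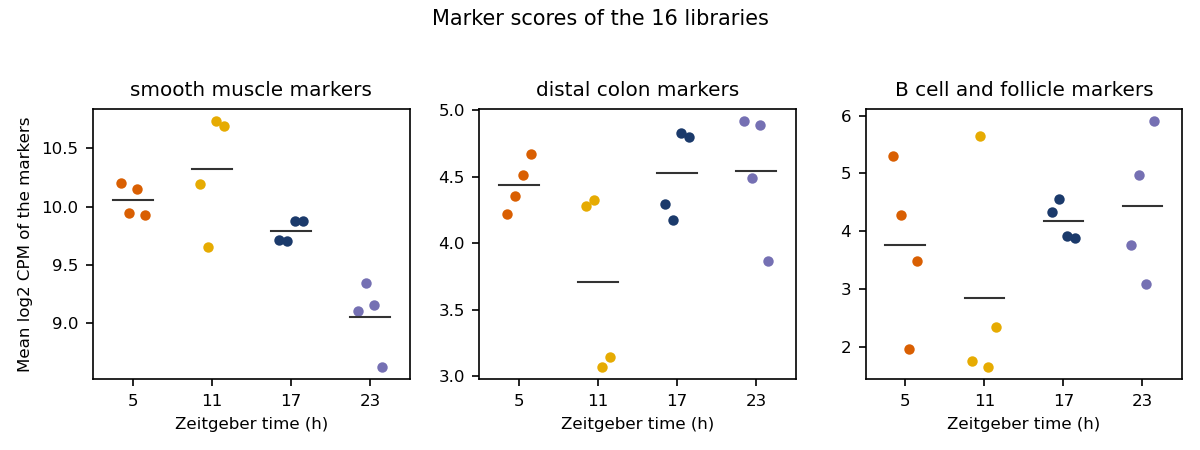
Mean log2 CPM of smooth muscle, distal colon and B cell markers (y axes) by zeitgeber time in h (x axis). Each point is 1 of 16 libraries and each bar the mean of 4. The muscle level is lowest at ZT23, and 2 ZT11 libraries combine the highest muscle with the lowest distal colon level.

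Which genes differ between the 4 times was asked with edgeR's quasi-likelihood F test of 3 contrasts across 16938 genes. It called 1507 genes at an adjusted p under 0.05, which is 8.9% of those tested. For each gene a 24 h cosine gave a peak hour and an amplitude, the log2 distance from its mid-level to its peak. The median amplitude was 0.47 among the called genes and 0.208 over all genes tested, and 179 called genes reached 1 or more. At ZT17 against ZT5 alone, 318 genes differed (1.88%), 181 of them higher at ZT17 (1.07%) and 137 lower (0.809%). Scaling by total counts gave 241 higher and 116 lower. Leaving out 1 library gave 98 (without ZT17 replicate 3) to 446 (without ZT5 replicate 4) genes, and 6 of the 16 single removals moved the count by over 1.5 times. At ZT23 against ZT11, 1789 genes differed (10.6%), of which 721 were higher at ZT23 (4.26%) and 1068 lower (6.31%). A 12 h alternation, ZT5 and ZT17 against ZT11 and ZT23, was called for 4 genes by edgeR (0.0236%), 3 of them higher at ZT5 and ZT17 (0.0177%) and 1 lower (0.0059%), and for 47 by DESeq2. The libraries at the highest and the lowest time did not overlap in 1258 of the 1507 called genes and in 4472 of all 16938 tested (26.4%). The calls rest on the same values, so neither this nor the larger median amplitude of called genes is separate support.

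Called genes peaked in every part of the day but not evenly. Grouped into 6 h windows around each sampling time, 176 peaked around ZT5 (1.04% of genes tested), 633 around ZT11 (3.74%), 278 around ZT17 (1.64%) and 420 around ZT23 (2.48%). The muscle markers were among the genes peaking around ZT11, and their low hour was ZT23. With the smooth muscle score as a covariate 330 genes were called (1.95%) and 71 of the ZT23 against ZT11 differences, with the colon position score 453 and 96, and without ZT11 replicates 3 and 4 the time-of-day count was 440. Leaving out ZT11 replicate 3 gave 672 genes, and leaving out ZT11 replicate 4 gave 838. A gene is said below to pass all 4 checks where its adjusted p stayed under 0.05 with each of 3 covariates (B cell, colon position, smooth muscle) and without those 2 libraries. That held for 203 genes (1.2% of those tested): 52 around ZT5, 19 around ZT11, 94 around ZT17 and 38 around ZT23. The checks weigh mostly on ZT23 against ZT11. That count of 1789 fell to 71 with the smooth muscle covariate and to 120 without the 2 libraries. The 318 genes of ZT17 against ZT5 became 251 and 314. The split of the 203 genes by window thus depends on which checks were chosen. Among called ZT17-window genes with a matched promoter, 44 of 207 held E-box letters in any of their promoters (21.3%). It was 35 of 298 genes for ZT23 (11.7%), 51 of 480 for ZT11 (10.6%) and 11 of 127 for ZT5 (8.66%).

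**Figure D2:**
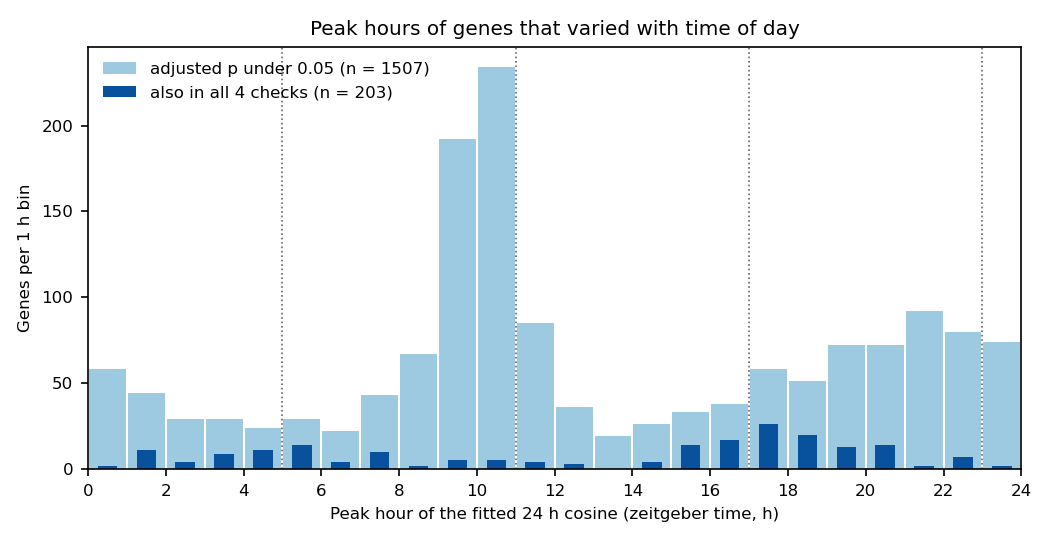
Number of genes per hour (y axis) by fitted peak hour in zeitgeber time (x axis). Light bars show the 1507 genes called for time of day and dark bars the 203 that pass all 4 checks. Dotted lines mark the sampling times. The light bars are tallest from ZT9 to ZT11, and 94 of the 203 dark-bar genes lie around ZT17. The checks weigh mostly on ZT23 against ZT11, so the hours of the dark bars depend on the choice of checks.

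Most clock genes varied with the hour, in groups with opposite phases. Of 21 tested clock genes, 4 of 7 activators, 9 of 10 repressors and 3 of 4 output factors were called (8.9% of all genes were), with median list amplitudes of 0.579, 1.14 and 1.09 against 0.208 over all genes. The groups stood apart, with Arntl, Npas2 and Nfil3 near ZT5 to ZT6 and most repressors and outputs between ZT15 and ZT20. Of these 16 called genes, 12 pass all 4 checks.

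The activator Arntl was high at midday. Its libraries, given here and below in the order of replicates 1 to 4, held 62.4, 74.3, 88.7 and 62.8 CPM at ZT5, then 38.6, 22.8, 33.8 and 45.1 at ZT11, 17.6, 27.4, 19 and 14 at ZT17, and 26.5, 31.3, 33.8 and 27.4 at ZT23. All 4 ZT5 libraries lay above the other 12. The fitted peak was ZT5.48 (SE 0.467 h) with an amplitude of 0.95 (SE 0.116), and edgeR's adjusted p was 8.87e-05. Npas2, which can take the place of CLOCK as BMAL1's partner, went from 51.5 ± 12 CPM (SD, n = 4) at ZT5 to 19.1 ± 5.18 at ZT17, with a peak at ZT6.3 and adjusted p = 0.00883. Its partner gene Clock itself was not called, at 102, 102, 88.3 and 87.7 CPM on average across the 4 times (edgeR adjusted p = 0.185). The ROR receptor gene Rora had a small rise at ZT11 (18.6 ± 4.70 CPM against 11.4 at ZT17 and ZT23) whose edgeR adjusted p of 0.0442 was lost without any 1 of 13 libraries (up to 0.166 without ZT11 replicate 3) and reached 0.335 with the smooth muscle covariate. Rorb and Arntl2 were not called (edgeR adjusted p = 0.542 and 0.283).

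The REV-ERB genes had the smallest p-values of all genes tested. Nr1d1 stood at 6.62, 7.72, 3.32 and 6.50 CPM at ZT5, 141, 137, 136 and 72.7 at ZT11, 139, 219, 164 and 195 at ZT17, and 34.2, 27.7, 15.8 and 18.4 at ZT23. No library of ZT11 or ZT17 overlapped one of ZT5 or ZT23, and the means at ZT17 and ZT5 differed 29.6-fold. The log2 difference of ZT17 to ZT5 was 4.89 (SE 0.274), the peak ZT15.3 (SE 0.185 h) and edgeR's adjusted p 4.81e-11. Nr1d2 ran from 11.4, 14.2, 14.3 and 13.9 CPM at ZT5 through 79.7, 90.7, 104 and 49.5 at ZT11 to 105, 109, 159 and 142 at ZT17, and was at 74.7, 68.0, 76.6 and 78.4 at ZT23. Its ZT5 libraries lay below all others and its ZT17 libraries above all others. The amplitude was 1.63 (SE 0.0953), the peak ZT16.9 and edgeR's adjusted p 5.72e-10.

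The PER genes peaked in the dark phase, Per2 latest. Per1, an immediate responder to light, feeding and glucocorticoid signals, had 17.9, 23.6, 20.1 and 31.7 CPM at ZT5, 38.7, 51.1, 82.0 and 41.7 at ZT11, 38.4, 43.4, 140 and 58.9 at ZT17, and 78.6, 49.0, 49.0 and 79.2 at ZT23. All ZT5 libraries were lowest, while the other 3 times overlapped. Its peak was ZT17.6 (SE 0.754 h, edgeR adjusted p = 0.0127, and 0.0578 in a fit of the PBS libraries alone). Per3 had 9.12, 13.4, 18 and 19.4 CPM at ZT5, 21.8, 32.6, 35.7 and 10.6 at ZT11, 42.5, 56.7, 88.3 and 82.3 at ZT17, and 52.8, 60.7, 62.4 and 53.9 at ZT23. Every dark-phase library lay above every light-phase library. It peaked at ZT18.9 with an amplitude of 1.24 (SE 0.137, edgeR adjusted p = 6.1e-05). Per2 held 102, 57.0, 70.5 and 26.4 CPM at ZT5, 23.1, 19.1, 45.9 and 30.6 at ZT11, 63.8, 34.2, 94.7 and 48.8 at ZT17, and 104, 125, 193 and 86.4 at ZT23. Its ZT23 libraries lay above those of ZT11 but overlapped those of ZT5 and ZT17. The peak was ZT23.2 (SE 0.747 h) and edgeR's adjusted p 0.0140, which was 0.0537 without ZT23 replicate 3 and 0.0987 with the colon position covariate.

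Among the other repressors, Ciart had the largest amplitude of the clock genes after Nr1d1. It was at 0.774, 1.01, 1.00 and 0.747 CPM at ZT5, 1.81, 8.73, 7.59 and 1.44 at ZT11, 11.4, 18.8, 60.8 and 18.6 at ZT17, and 7.56, 11.8, 3.6 and 9.79 at ZT23. ZT5 was below every other library, and ZT17 replicate 3 stood far above its group. The amplitude was 2.50 (SE 0.262), the peak ZT17.6 and edgeR's adjusted p 2.16e-05. Cry1 was the only tested repressor without a call, and its libraries scattered within a time. It had 27.4, 196, 105 and 109 CPM at ZT5, 97.1, 4.29, 38.5 and 140 at ZT11, 4.65, 3.38, 10.7 and 35.4 at ZT17, and 63.4, 91.4, 67.6 and 78.3 at ZT23. The ZT11 libraries overlapped all other times, while the ZT17 libraries all lay below those of ZT23. The fitted peak was ZT4.87 with an amplitude of 1.5 (SE 0.379) and edgeR's adjusted p 0.0733. Cry2 was higher at ZT23 (72.2 ± 7.68 CPM, SD, n = 4) than at ZT11 (36.1 ± 8.58), with edgeR adjusted p = 0.0133 but 0.0749 with the smooth muscle covariate. Bhlhe40, a helix-loop-helix repressor that competes for E-boxes, averaged 91.7, 75.9, 173 and 145 CPM at ZT5, ZT11, ZT17 and ZT23 (peak ZT20.0, edgeR adjusted p = 0.00213). Its relative Bhlhe41 peaked at ZT17.1 with edgeR adjusted p = 0.0383, a call that leaving out any 1 of 10 libraries ended (up to 0.0928 without ZT17 replicate 1).

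Of the output factors, Dbp and Tef peaked in the dark phase like the REV-ERB genes, and Nfil3 peaked at midday. Dbp read 7.05, 7.41, 5.78 and 9.19 CPM at ZT5, 43.9, 87.0, 93.6 and 23.6 at ZT11, 117, 99.0, 237 and 160 at ZT17, and 52.6, 41.3, 28.7 and 28.1 at ZT23. ZT5 libraries were lowest and ZT17 libraries highest, without overlap with any other time. The means at ZT17 and ZT5 differed 20.8-fold, the peak was ZT16.4 (SE 0.328 h) and edgeR's adjusted p 4.17e-06. Tef went from 40.3 ± 10.5 CPM (SD, n = 4) at ZT5 to 204 ± 85.3 at ZT17 (peak ZT18.3, edgeR adjusted p = 0.00731). Nfil3, which opposes these factors on D-boxes, was at 12.6, 13.4, 15.5 and 12.7 CPM at ZT5, 4.38, 3.73, 6.66 and 8.87 at ZT11, 3.86, 3.46, 4.13 and 3.36 at ZT17, and 4.49, 4.94, 3.95 and 5.62 at ZT23. All 4 midday libraries exceeded the rest. Its peak was ZT5.64 with edgeR adjusted p = 0.00351. Hlf scattered from 3.73 to 76.8 CPM within ZT11 alone and was not called (edgeR adjusted p = 0.443).

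**Figure D3:**
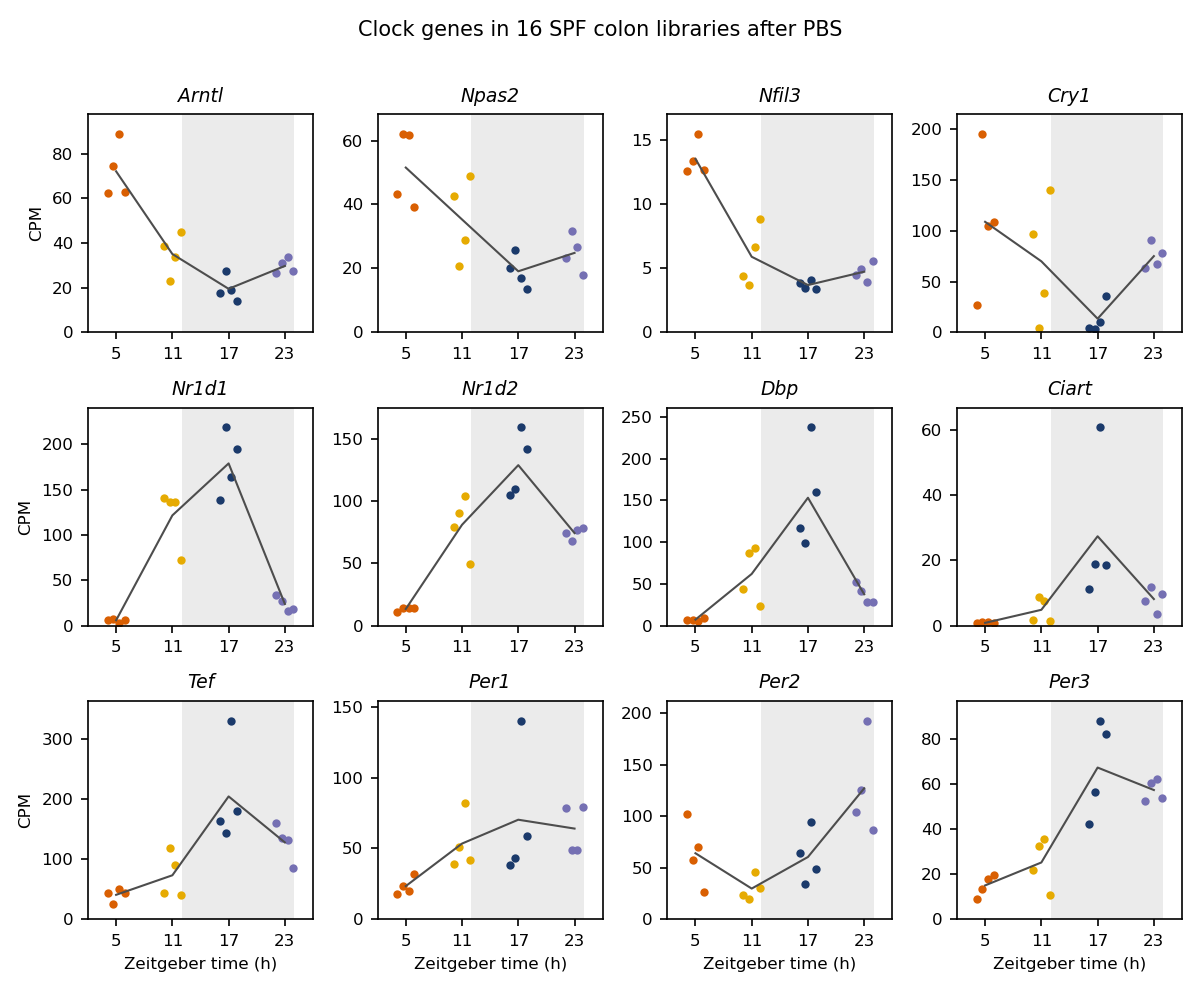
CPM (y axes, linear from 0) of 12 clock genes by zeitgeber time in h (x axes). Points are the 16 libraries, lines join the means of 4, and grey marks the dark phase. Arntl, Npas2 and Nfil3 are highest at ZT5, where Nr1d1, Dbp and Ciart are lowest.

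Enzymes and modifiers linked to the clock were called in 10 of 20 cases (8.9% over all genes), with a median amplitude of 0.375, and 3 of the 10 pass all 4 checks. Cipc, a CLOCK-interacting repressor whose E-box is shown above, rose from 103 ± 7.30 CPM (SD, n = 4) at ZT5 to 218 ± 46.9 at ZT17 (peak ZT19.1, edgeR adjusted p = 0.000415). Klf9 (peak ZT15.7, edgeR adjusted p = 0.000615) and the kinase gene Pim3 (peak ZT15.6, edgeR adjusted p = 0.00218) were the other 2. Wee1, the kinase that holds cells before mitosis, peaked at ZT21.7 at 25 CPM against 11.6 at ZT11 (edgeR adjusted p = 0.00303, but 0.0644 with the smooth muscle covariate). Pdk4, which limits glucose oxidation, peaked at ZT11.8 (edgeR adjusted p = 0.00225) and averaged 2.92 CPM at ZT23, and the same covariate gave it 0.12.

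Glucocorticoids reach their daily maximum around the onset of activity, and 6 of 17 of their known targets were called (8.9% over all genes), with a median list amplitude of 0.413, but not at one shared hour. Zbtb16, a zinc finger gene strongly induced by these hormones, had 4.99, 6.94, 7.02 and 5.38 CPM at ZT5, 6.36, 10.4, 8.60 and 8.19 at ZT11, 35.3, 45.1, 79.3 and 49.9 at ZT17, and 8.88, 18.1, 16.3 and 7.06 at ZT23. All 4 ZT17 libraries lay above every other library. The log2 difference of ZT17 to ZT5 was 3.1 (SE 0.552), and edgeR's time-of-day adjusted p was 0.00195. Mt2, a metal-binding metallothionein, fell at the end of the night, to 3.25, 2.77, 9.38 and 4.74 CPM at ZT23 from 18.7, 76.0, 50.1 and 40.0 at ZT17. It had been 21.8, 22.9, 16.3 and 85.1 at ZT5 and 36.3, 34.7, 34.1 and 61.9 at ZT11, so ZT23 lay below all other libraries (edgeR adjusted p = 0.00403, peak ZT11.4). Mt1 likewise was lowest at ZT23 (37.3 ± 8.20 CPM against 124 ± 41.3 at ZT17, SD, n = 4, edgeR adjusted p = 0.0184), and its call was lost without ZT23 replicate 2 (0.0557) or 4 (0.0594) and with the smooth muscle covariate (0.123). Tsc22d3 (GILZ) ran the other way, lowest at ZT17 (64 ± 21.4 CPM) and highest at ZT23 (123 ± 12.5, edgeR adjusted p = 0.0121). Fkbp5 (means of 100, 93.1, 201 and 139 CPM in order of time) and Sgk1 were not called (edgeR adjusted p = 0.0998 and 0.379).

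Cholesterol synthesis was the metabolic list with the most calls. Of its 21 genes 17 were called, all 17 with a peak in the window around ZT23 (background 2.48%), and the median list amplitude was 0.44. Fdps, which makes farnesyl diphosphate, had 85.0, 63.3, 91.8 and 90.5 CPM at ZT5, 74.5, 60.8, 58.8 and 96.5 at ZT11, 113, 71.2, 53.2 and 68.2 at ZT17, and 202, 158, 170 and 125 at ZT23. Every ZT23 library was above the other 12. Its amplitude was 0.588 (SE 0.117), its peak ZT23.4 and edgeR's adjusted p 0.00401. Pmvk, phosphomevalonate kinase of the same route, had 26.7, 26.1, 35.8 and 35.6 CPM at ZT5, 21.1, 22.5, 17.6 and 22.6 at ZT11, 21.5, 16.5, 15.1 and 18 at ZT17, and 46.1, 36.5, 40.5 and 28.8 at ZT23. It was thus high in both ZT23 and ZT5 libraries, which overlapped each other but neither of the other times (peak ZT1.89, edgeR adjusted p = 0.000916). Srebf2, the gene of the pathway's transcription factor, was among the 4 without a call (290 ± 25 CPM at ZT23 against 227 ± 29 at ZT11, edgeR adjusted p = 0.198). The mean log2 level of the list was highest at ZT23 (6.76), where that of the smooth muscle markers was lowest (9.05). Within ZT23, replicate 4 was lowest in both (6.45 and 8.62). Hour and muscle level cannot be told apart here. With the smooth muscle covariate 4 of the 17 remained called, without ZT11 replicates 3 and 4 there were 5, and 3 (Fdps, Lss and Pmvk) pass all 4 checks. Leaving out ZT23 replicate 1 left 7 called genes in the list.

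Fatty acid synthesis showed the same hour for its best-supported members. The lipogenesis list had 7 of 15 called, 4 of them around ZT23 (8.9% and 2.48% over all genes), and 2 with the smooth muscle covariate. Fasn, fatty acid synthase, had 143, 145, 175 and 159 CPM at ZT5, 155, 130, 92.1 and 147 at ZT11, 177, 148, 162 and 161 at ZT17, and 355, 268, 257 and 203 at ZT23. The ZT23 libraries lay above all others (peak ZT22.8, edgeR adjusted p = 0.00139). Srebf1, the gene of the factor that drives lipogenesis, peaked at ZT22.7 at 133 ± 24.4 CPM (SD, n = 4) against 61.5 ± 10.03 at ZT11 (edgeR adjusted p = 0.00549). Both pass all 4 checks, and Me1, which supplies NADPH, peaked instead at ZT9.23 and did not (edgeR adjusted p = 0.00489). The list of fatty acid oxidation and ketogenesis had 5 of 25 called (8.9% over all genes) and a median amplitude of 0.204, against 0.208 over all genes. Its count was 0 with the smooth muscle covariate, 2 without ZT11 replicate 3 or ZT23 replicate 3, and 3 without ZT17 replicate 2, 3 or 4 or ZT23 replicate 1 or 2. Of sugar transport and glycolysis genes 5 of 16 were called (3 without ZT17 replicate 3), among them the fructose transporter Slc2a5, which rose from 0.90 ± 0.475 CPM at ZT5 to 6.27 ± 3.66 at ZT17 (peak ZT17.7, edgeR adjusted p = 0.0131, and 0.0504 without ZT17 replicate 3). The glycolytic Pgk1 peaked at ZT1.56 with a small amplitude of 0.325 (edgeR adjusted p = 0.0064).

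Chaperones of the endoplasmic reticulum, which fold secreted proteins, were called in 8 of 25 genes, 7 of them around ZT23, against 8.9% and 2.48% over all genes. Sdf2l1 read 53.5, 46.3, 46.9 and 44.7 CPM at ZT5, 38.9, 34.9, 31.3 and 29.9 at ZT11, 37.2, 31.7, 28.6 and 29.6 at ZT17, and 61.8, 50.3, 57.4 and 57.0 at ZT23. The ZT23 and ZT5 libraries exceeded all of ZT11 and ZT17 (peak ZT1.56, edgeR adjusted p = 0.00108). Herpud1, of the degradation branch, peaked instead at ZT17.2 (138 ± 22.2 CPM against 71.6 ± 12.5 at ZT5, SD, n = 4, edgeR adjusted p = 0.00359). These 2 pass all 4 checks. Calr, calreticulin, peaked at ZT1.06 (edgeR adjusted p = 0.00887) and does not pass all of them. The list's count was 5 without ZT23 replicate 1 and 2 with the smooth muscle covariate. Cytosolic heat shock chaperones had 4 of 20 called, and 2 without ZT17 replicate 2 or 3 or ZT23 replicate 1 or 3. Hsph1 was at 48.3, 40.9, 33.2 and 42.8 CPM at ZT17, below all other libraries, and at 41.3 ± 6.26 (SD, n = 4) against 87.7 ± 16.9 at ZT5 (edgeR adjusted p = 0.0018).

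Cell cycle genes split into an S phase group near lights on and a mitosis group near lights off. Of 26 DNA replication and S phase genes 8 were called, all with peaks from ZT23.6 to ZT2.1, and of 25 mitosis genes 7 were called, 6 of them around ZT11. Over all genes 8.9% were called, 3.74% in the ZT11 window and 2.48% in the ZT23 window. Mcm5, a subunit of the replicative helicase, had 32.4, 23.7, 19.8 and 28.2 CPM at ZT5, 18.2, 24.6, 16 and 13.2 at ZT11, 26.9, 14.5, 18.1 and 14.1 at ZT17, and 43.0, 30.7, 33.1 and 52.0 at ZT23. ZT23 lay above ZT11 and ZT17 but overlapped ZT5 (peak ZT0.586, edgeR adjusted p = 0.0115). Cenpf, a kinetochore gene expressed before and during mitosis, had 18.7, 6.55, 10.3 and 10.01 CPM at ZT5, 33.8, 43.8, 19.6 and 19.7 at ZT11, 16, 21.7, 7.03 and 23.4 at ZT17, and 5.72, 7.36, 7.10 and 6.26 at ZT23. All ZT11 libraries were above all of ZT23 and ZT5 (peak ZT12.0, amplitude 1.11, SE 0.205, edgeR adjusted p = 0.00894). Cyclin B1 (Ccnb1) followed at ZT11.9 with 13.8 ± 3.45 CPM at ZT11 and 4.28 ± 2.19 at ZT23 (edgeR adjusted p = 0.0127, but 0.0869 with the colon position covariate and 0.0666 without ZT11 replicates 3 and 4). Mki67, a broad proliferation marker, was not called (edgeR adjusted p = 0.172). Both lists lost calls in the checks. The mitosis list had 5 calls with the smooth muscle covariate, 3 with the colon position covariate and 4 without ZT11 replicates 3 and 4, and the S phase list had 0, 2 and 1. Total-count scaling left 2 S phase calls. A difference between the lists was not tested. Cenpf passes all 4 checks, and Mcm5 was at 0.202 with the smooth muscle covariate. Single removals gave 2 to 10 S phase calls (5 or fewer in 11 of 16), with 2 without ZT11 replicate 3 or 4 or ZT23 replicate 1 or 4, and 4 to 8 mitosis calls, with 4 without ZT11 replicate 2.

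**Figure D4:**
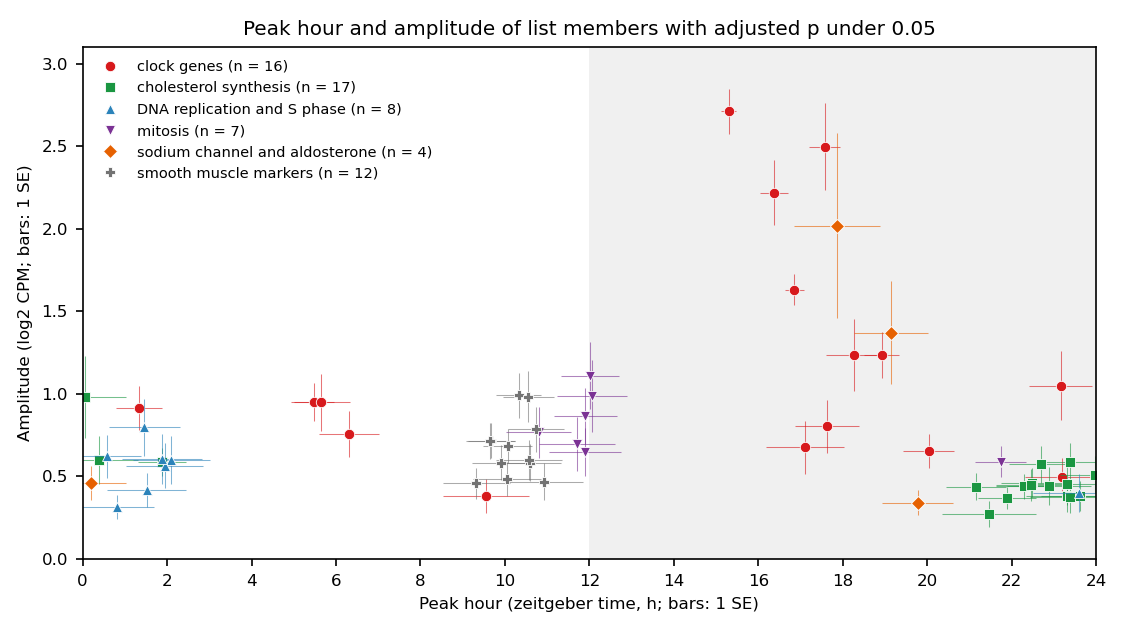
Amplitude in log2 CPM (y axis) against peak hour in zeitgeber time (x axis) for called genes of 6 lists. Points are genes, bars are 1 SE, and grey marks the dark phase. Clock genes reach 2.71, while the 17 cholesterol genes sit between ZT21.2 and ZT1.89 with amplitudes up to 0.981.

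Sodium uptake through the epithelial channel ENaC is a main task of the distal colon, and 4 of 11 tested genes of this aldosterone-driven list were called (8.9% over all genes), none of which passes all 4 checks. The count was 1 without ZT11 replicate 3 or 4, 2 without ZT17 replicate 2, ZT23 replicate 2 or 3 or ZT5 replicate 1 or 2, and 0 with the smooth muscle covariate. The β subunit gene Scnn1b had 2.32, 4.68, 5.71 and 6.72 CPM at ZT5, 3.61, 6.51, 3.46 and 2.45 at ZT11, 7.11, 43.1, 28.2 and 19.2 at ZT17, and 5.10, 4.68, 19.2 and 15.2 at ZT23. Each ZT17 library lay above all of ZT5 and ZT11, but ZT23 overlapped the other times (peak ZT19.1, amplitude 1.37, SE 0.311, edgeR adjusted p = 0.0177, and 0.0749 without ZT17 replicate 2). The γ subunit gene Scnn1g, named after its values were seen, was listed at 0, 0.234, 0.540 and 1.87 CPM at ZT5 and at 1.03, 3.97, 0.0843 and 0.0845 at ZT11. It had 1.93, 21, 13.2 and 5.62 at ZT17 and 0.176, 0.866, 4.56 and 4.17 at ZT23. Its edgeR adjusted p of 0.0454 was lost without any 1 of 13 libraries (up to 0.175 without ZT17 replicate 2). Scnn1a, the α subunit gene, peaked at ZT0.192 with 222 ± 35.7 CPM at ZT23 and 121 ± 26 at ZT11 (SD, n = 4, edgeR adjusted p = 0.0282). Its call was lost without ZT11 replicate 3 (0.0944) or 4 (0.0735) and without ZT23 replicate 2 (0.0603) or 3 (0.0699). Distal colon markers were lowest in ZT11 replicates 3 and 4, where Scnn1b read 3.46 and 2.45. It read 2.32 in ZT5 replicate 1 and 3.61 in ZT11 replicate 1, whose distal colon levels were 4.22 and 4.28. With the colon position covariate Scnn1b stayed called, while the edgeR adjusted p was 0.205 for Scnn1a and 0.0559 for Scnn1g. What accounts for these values was not tested. Without ZT11 replicates 3 and 4, the edgeR adjusted p of Scnn1b was 0.0927.

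Anion and proton transport genes were called in 6 of 18 cases (8.9% over all genes). The count was 3 without ZT11 replicate 3 or 4, ZT17 replicate 2 or ZT23 replicate 2, and 1 with the smooth muscle covariate. Slc26a2, a sulfate transporter of the colonic epithelium, had 751, 879, 925 and 909 CPM at ZT5, 883, 1072, 963 and 686 at ZT11, 1257, 1780, 1865 and 1669 at ZT17, and 1014, 1001, 978 and 1063 at ZT23. The 4 ZT17 libraries lay above the other 12 (peak ZT17.7, amplitude 0.47, SE 0.092, edgeR adjusted p = 0.00495), and the gene passes all 4 checks. Slc12a2, the basolateral cotransporter that feeds chloride secretion, was highest at ZT11 (343 ± 51.9 CPM against 179 ± 26.4 at ZT23, SD, n = 4, edgeR adjusted p = 0.00887) but was at 0.13 with the smooth muscle covariate. The bestrophin channel gene Best2 averaged 77.0 ± 35.7 CPM at ZT17 and 16.5 ± 10.5 at ZT11 (edgeR adjusted p = 0.0188). It was at 0.0822 without ZT17 replicate 2, 0.0566 without ZT11 replicate 3 and 0.0533 without ZT11 replicate 4. Atp12a, the proton pump of the distal colon, was singled out after its values were seen: 730.5, 1158, 1051 and 1101 CPM at ZT23 stood against 300, 279, 36.1 and 36.0 at ZT11. The 2 ZT11 libraries low in distal colon markers were also the lowest here, for a reason that was not tested. The gene's edgeR adjusted p was 0.025, and 0.42 with the smooth muscle and 0.0677 with the colon position covariate. The call was also lost without ZT11 replicate 3 (0.0609) or 4 (0.0533) and without ZT23 replicate 2 (0.0533), 3 (0.0524) or 4 (0.0512). Aquaporins had 0 of 6 called by edgeR, where 0 reached an unadjusted p of 0.05 and 0 were called under any other setting run.

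Among amino acid transporters 4 of 15 were called (8.9% over all genes), none passing all 4 checks. The count was 2 without ZT11 replicate 3 or 4, 7 without ZT11 replicate 2 and 1 with the smooth muscle covariate. Slc7a9, the light subunit of the cystine transporter, had 0.774, 1.17, 1.85 and 1.05 CPM at ZT5, 1.46, 0.159, 1.1 and 0.338 at ZT11, 11.4, 5.77, 4.57 and 12.6 at ZT17, and 1.5, 3.03, 2.72 and 3.05 at ZT23. ZT17 lay above all other libraries (peak ZT19.1, amplitude 1.66, SE 0.396, edgeR adjusted p = 0.0143, and 0.0654 without ZT11 replicates 3 and 4). ZT17 replicate 4, the highest, also held small intestine transcripts: Apoa1 at 179.9 CPM, Sis at 48.5 and Fabp6 at 48.5, against at most 0.263, 0 and 2.9 in the other ZT17 libraries. Leaving out this library did not end the Slc7a9 call. The glutamine transporter gene Slc1a5 averaged 156, 133, 222 and 240 CPM over the 4 times, with edgeR adjusted p = 0.00336 that became 0.112 with the smooth muscle covariate.

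**Figure D5:**
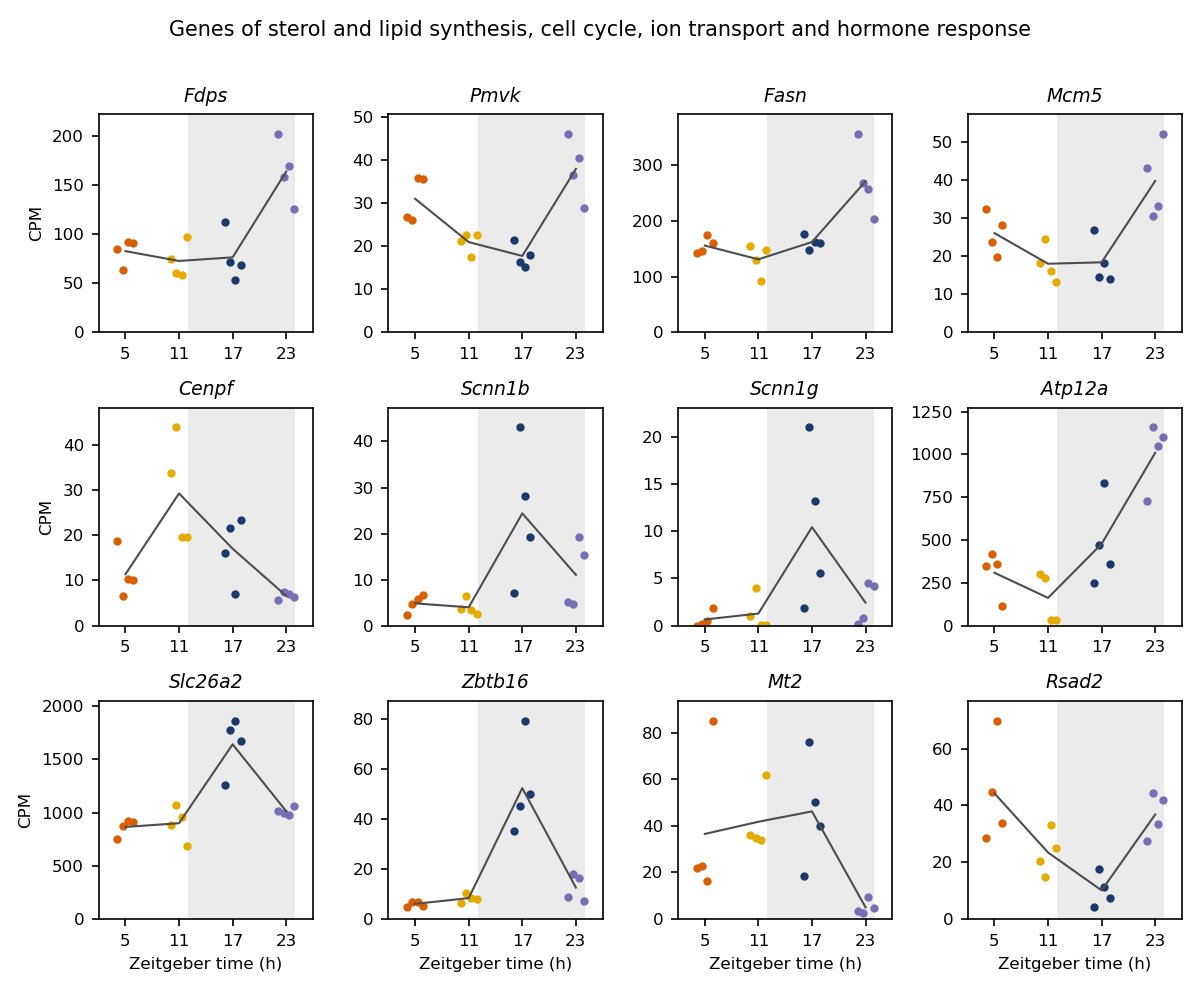
CPM (y axes, linear from 0) by zeitgeber time in h (x axes) for 12 genes of lipid synthesis, cell cycle, ion transport, hormone response and interferon response. Points are the 16 libraries, lines join means of 4 and grey marks the dark phase. Fdps and Fasn are highest at ZT23, Cenpf at ZT11 and Slc26a2 and Zbtb16 at ZT17.

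Immune and barrier lists had few calls, and several scattered widely within a time. Interferon-stimulated genes were called in 3 of 36 cases, a share of 8.33% that is near the 8.9% background. These 3 pass all 4 checks, as did 1.2% of all genes tested. Rsad2 (viperin, an antiviral enzyme) had 28.7, 44.6, 69.9 and 33.9 CPM at ZT5, 20.5, 14.9, 33.3 and 25.1 at ZT11, 4.30, 17.7, 11.2 and 7.26 at ZT17, and 27.4, 44.3, 33.6 and 42.1 at ZT23. Its ZT17 libraries lay below those of ZT5 and ZT23 (peak ZT3.86, edgeR adjusted p = 0.0105). Irf7, the interferon regulatory factor, followed the same course from 223 ± 58 CPM at ZT5 to 70.5 ± 30.9 at ZT17 (SD, n = 4, peak ZT4.32, edgeR adjusted p = 0.0255). That p became 0.0705 without ZT5 replicate 3, 0.0528 without ZT5 replicate 2 and 0.0851 in a fit of the PBS libraries alone. Ifi27l2b was high in 3 of the 4 ZT11 libraries (69.7, 56.5, 107 and 11.7 CPM) and at 7.14 to 24.8 in the other 12 (edgeR adjusted p = 0.00161). Genes of goblet cells and mucus had 0 of 18 called by edgeR, where 3 reached an unadjusted p under 0.05 and up to 2 were called under another setting. Pattern recognition genes had 1 of 30, cytokines and chemokines 1 of 19, claudins and tight junctions 1 of 16 and MHC class II 1 of 10. The mean log2 CPM of the MHC class II genes was 4.36 ± 1.19 (SD, n = 4) at ZT11 and 5.59 ± 1.02 at ZT23, and that of the T and NK cell markers 0.66 ± 1.14 and 2.13 ± 1.43. Antimicrobial and microbe-induced genes had 5 of 22 called (8.9% over all genes), a count of 0 with the smooth muscle covariate or without ZT11 replicate 3, 7 without ZT17 replicate 1, and 3 or fewer without any 1 of 11 libraries. Among them the lectin gene Itln1 was at 0.794 to 8.45 CPM at ZT11 and at 4.6 to 2574 elsewhere (edgeR adjusted p = 0.024), and its call was lost without ZT11 replicate 1 (0.0605), 2 (0.0551), 3 (0.0778) or 4 (0.0678). Reg3b and Reg3g, bactericidal lectin genes, were at 183 and 156 CPM in ZT17 replicate 4 and at no more than 24.4 and 16.3 in the other 15 libraries. Both were called by edgeR, but their edgeR adjusted p was 0.0538 and 0.164 without that library. By limma-trend the adjusted p was 0.675 and 0.59. ZT17 replicate 4 is also the library with the small intestine transcripts given above. Markers of T and NK cells (16), macrophages and dendritic cells (14) and fat (12) had 0 called by edgeR. Among them 1, 0 and 1 genes reached an unadjusted p under 0.05, and other settings called at most 1, 2 and 1.

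The basic machinery of the cell had small amplitudes. Oxidative phosphorylation had 1 of 23 genes called (4.35%) with a median amplitude of 0.0741. Cytosolic ribosomal proteins had 2 of 26 called (7.69%) with 0.1. Both amplitudes were below the 0.208 of all genes, of which 8.9% were called. Immediate early genes had 3 of 21, and from 2 to 6 with 1 library left out (6 without ZT17 replicate 1 and 5 without ZT11 replicate 1, ZT23 replicate 4 or ZT5 replicate 3). Junb, an AP-1 component, was highest at ZT17 with 170, 350, 310 and 271 CPM, against 131, 150, 90.7 and 128 at ZT5, 138, 80.5, 127 and 110 at ZT11 and 177, 139, 132 and 198 at ZT23. ZT17 lay above ZT5 and ZT11 and overlapped ZT23 (edgeR adjusted p = 0.000746, passing all 4 checks). Of crypt and Wnt target genes 3 of 15 were called (8.9% over all genes). The Wnt feedback gene Rnf43 peaked at ZT18.9 (46.8 ± 8.75 CPM at ZT17 against 18.8 ± 6.83 at ZT5, SD, n = 4, edgeR adjusted p = 0.00731), while Nkd1, another feedback inhibitor, peaked at ZT8.0 (edgeR adjusted p = 0.0123, and 0.0553 with 3 covariates together). Both pass all 4 checks.

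Outside the lists, single genes of each window had small p-values. Around ZT17, Ccdc116 read 3.18, 8.82, 5.86 and 6.87 CPM at ZT5, 11, 18.5, 19 and 9.97 at ZT11, 32.6, 36.4, 47.0 and 36.8 at ZT17, and 16.4, 8.40, 16.4 and 18.6 at ZT23. ZT17 lay above all other libraries (amplitude 1.31, SE 0.145, edgeR adjusted p = 3.55e-05). The histone acetyltransferase gene Kat6b (49.4 ± 5.14 CPM at ZT17 against 26.9 to 32.6 on average elsewhere, edgeR adjusted p = 0.000276) and the annexin gene Anxa7 (193 ± 16.1 against 111 to 134, edgeR adjusted p = 0.000326) had the same single high time. Around ZT5, the extracellular matrix gene Spon2 had 42.7, 37.8, 45.0 and 42.4 CPM at ZT5 and 10.5, 7.61, 8.96 and 11.2 at ZT17 (peak ZT6.53, edgeR adjusted p = 0.000712). Slc34a2, a phosphate transporter, went from 124 ± 62 CPM at ZT5 to 19.9 ± 4.17 at ZT17 (SD, n = 4, edgeR adjusted p = 0.0131), and the tubulin-binding Tppp from 167 ± 54.1 to 50.2 ± 9.15 (edgeR adjusted p = 0.00145). All 6 pass the 4 checks. Around ZT11, Anln, the anillin of the cell division ring, was at 18.3 ± 6.49 CPM at ZT11 and 4.67 ± 1.72 at ZT23 (edgeR adjusted p = 0.000162) and also passes them.

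Some of the smallest p-values belonged to genes that switched by group of libraries rather than along a smooth course. Rpl19-ps5, a pseudogene of a ribosomal protein, was at 22.1 to 24.6 CPM in all 4 ZT23 libraries, at 21.5 and 20.7 in ZT5 replicates 2 and 3, and at 0.175 or less in the other 10. Near-identical copies can share reads with it. Trim5 was at 1.06 to 1.39 CPM at ZT23 and at 8.95 to 22.4 elsewhere (edgeR adjusted p = 4.75e-05). Trim12c, with 2 protein-coding genes between it and Trim5 on chromosome 7, ran the opposite way, at 62.4 to 75.5 at ZT23, 41.7 to 49.1 at ZT17 and 43.3 in ZT5 replicate 4, but 11.5 to 16.1 in the remaining 7 (edgeR adjusted p = 0.000495). Nlrp1b was at 6.28 or more in all ZT5 and ZT17 libraries and 5.41 in ZT11 replicate 4, but at 0.674 or less in the other 7. Stim1, also on chromosome 7, was lowest at ZT11 (77.9 to 94.6 CPM) and highest at ZT23 (170 to 275, edgeR adjusted p = 1.6e-05). Swiss Webster is an outbred stock and the labels give no family or cage, so for such genes the hour and the group of animals cannot be told apart. The labels leave the same limit on every other gene called here.

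Comparison with the other sets asked whether the same daily course was present elsewhere. After vancomycin 1389 of the same 16938 genes were called (8.2%), and 635 were called in both, which is 42.1% of the PBS list and 45.7% of the vancomycin list. The test of the difference itself called 61 genes (0.36%) between PBS and vancomycin. In germ-free colon after PBS 24 of 16604 genes were called (0.145%), and the difference between SPF and GF was called for 20 (0.12%; 1 without ZT23 replicate 1, 41 without ZT23 replicate 4, 276 by DESeq2), so the count of genes called in one set and not in the other is no measure of a difference. Nr1d2 was the only clock gene whose course differed in both comparisons. It averaged 13.4, 81.1, 129 and 74.4 CPM at ZT5, ZT11, ZT17 and ZT23 here, 23, 41.9, 108 and 82.8 after vancomycin (edgeR adjusted p of the difference = 0.0079) and 25.6, 36.3, 121 and 66.9 in GF colon (0.0361). The peak thus lay at ZT16.9, ZT18.6 and ZT18.4. Of the 16 called clock genes, 15 had a later fitted peak after vancomycin than after PBS, by a median of 1.66 h over the 16 (range -0.381 to 3.86 h), and 12 had a later and 4 an earlier peak in GF than in SPF colon (median 0.837 h, range -1.87 to 6.81 h, 6 later by over 1 h). Both shifts are set against the same PBS libraries and come from the same tissue pieces, so the genes are not independent, and apart from Nr1d2 no clock gene's difference passed the test. Among clock genes the next smallest was Nr1d1, with an adjusted p of 0.0588 against vancomycin by edgeR. Cholesterol synthesis genes were called in 18 of 21 cases after vancomycin (8.2% over all genes). All 12 smooth muscle markers were called there too, so hour and muscle level cannot be told apart in that set either. In germ-free colon after PBS 0 of 21 were called (0.145% over all genes). The SPF against GF difference was not called for Fdps (edgeR adjusted p = 0.0748), Pmvk (0.121) or Lss (0.197).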

How the data were processed

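Poly(A) RNA of whole colon was sequenced from libraries made with 1000 ng RNA as 75-cycle single-end reads, per the labels' protocols. Trim Galore 0.6.2, cutadapt 3.5, Salmon and the build GRCm39 are named in the submitters' processing notes. The authors deposited 1 table of 35534 genes for SPF and 1 for GF colon. The values are estimated counts as the authors deposited them, from a pipeline whose named tools, per the submitters' processing notes, include the quantifier Salmon. They are not whole, and the smallest common value in the PBS libraries is 0.977 to 1.009. The tables are called normalized, by a step that no source here describes, so treating them as unscaled estimated counts is an assumption. Values were rounded, and genes with a count of 10 in at least 4 libraries kept. edgeR 4.0.16 (TMM, quasi-likelihood F tests, two-sided, Benjamini-Hochberg over all genes) was fitted to 32 SPF libraries with 8 group means, and to all 64 for GF. CPM values are TMM-scaled. With 4 times 6 h apart, ZT17 minus ZT5 and ZT23 minus ZT11 fix a 24 h cosine, and the remaining contrast is the 12 h alternation. Scores are mean log2 CPM (prior count 2) of a marker list. Replicate pairs had a chi square of 15.2 to 54.3 per gene, so none looked like 1 library deposited 2 times.

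Named were all 21 clock genes, the 4 called genes of smallest p and the 4 of largest amplitude per 6 h window (mean count of at least 50, no overlap between the highest and lowest time, no predicted or receptor segment genes), and at most 3 called genes per list by smallest p. Outside this rule, Atp12a, Cnn1, Fkbp5, Lss, Mki67, Mt1, Reg3b, Reg3g, Scnn1g, Sgk1, Srebf2 and Tsc22d3 were chosen after their values were seen. The libraries and gene lists were chosen with earlier results of these data known. The fits were tested on simulated data. Alternatives were DESeq2 1.42.0, limma-trend (limma 3.58.1), RLE and total-count scaling, no filter, PBS libraries alone, a replicate block, 3 covariates and each library left out. R was 4.3.3. Some genes are not reported here.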

Additional observations from a re-analysis of the deposited data

Results flagged for a closer look

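Within groups of 4, a library stood far from the other 3 in 35 of 452 pairs of group and gene examined, and chance alone puts about 1 in 20 groups past this gap. Among clock genes, Nr1d1 was at 72.7 CPM in ZT11 replicate 4 against 136 to 141, Nr1d2 at 11.4 in ZT5 replicate 1 against 13.9 to 14.3, and Ciart at 60.8 in ZT17 replicate 3 against 11.4 to 18.8. Clock was at 102 in ZT23 replicate 3, and Arntl2 at 10.1 in ZT11 replicate 1 and at 4.65 in ZT23 replicate 4. ZT11 replicate 4, low for Nr1d1, was the highest of its group for Mt2 (61.9 CPM against 34.1 to 36.3) and for Nlrp1b (5.41 against 0.318 to 0.674).

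ZT17 replicate 1 held the most such values, 5: Mptx2 at 974 CPM (others at most 90.1) and Itln1 at 2574 (others at most 396), both genes of secretory cells such as Paneth or goblet cells, with Col8a1 high at 9.56, and Irf7 low at 24.7 and Apoc2 low at 1.58. ZT17 replicate 4 was high in Fabp6 (48.5 CPM against 1.67 to 2.90), the bile acid binding protein of the ileum, and was high in H2-Eb1 (83.6) and low in Srebf1 (65.9). ZT17 replicate 2 was lowest for Stim1 (173) and Me1 (14.8), and ZT17 replicate 3 for Ndufa4 (77.9).

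ZT5 replicate 4 was low in Tppp (86.8 CPM against 183 to 201) and high in Mt2 (85.1), Trim12c (43.3) and Gstp1 (258), and ZT5 replicate 1 was high in Hsp90aa1 (562) and Zfp365 (17.2). ZT11 replicate 2 was high in H2-Eb1 (17.1) and Bop1 (42.7) and low in Abcg2 (42.7) and Nkd1 (31.4), and ZT11 replicate 3 was high in Lypd1 (36.5) and at 0 for Rpl19-ps5. At ZT23, replicate 4 was low in Gsta4 (68.0) and Gstp1 (219) and high in Zfp365 (1.52), and replicate 1 was highest for Hsph1 (104).

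The daily course differed from that after vancomycin, by edgeR's interaction test, for Nr1d2 (adjusted p = 0.0079), Col8a1 (0.000769), Nlrp1b (0.00137), Stim1 (0.00186), Trim12c (0.00186), Ifi27l2b (0.00219), Itln1 (0.0089), Mptx2 (0.0133) and Wsb1 (0.0309). Col8a1, a short-chain collagen, averaged 48.5 CPM at ZT11 and 8.1 at ZT17 after PBS, and 15.8 and 30.2 after vancomycin. Ifi27l2b averaged 61.1 and 13.7 at these times after PBS, and 19.1 and 87.0 after vancomycin. Against germ-free colon the difference was called by edgeR for Nr1d2 (0.0361), Tmc8 (0.0361), Mptx2 (0.0361) and Itln1 (0.048).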

How the results depend on the processing

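Of 113 named genes, 51 kept their side of the threshold in all 28 alternatives. Settings that moved a count over 1.5 times follow, with the value reported above first. Time of day (1507 genes): DESeq2 2639, position covariate 453, smooth muscle covariate 330, 3 covariates together 659. The cosine (1961): 569, 329 and 438 with position, muscle and 3 covariates. The 12 h alternation (4): DESeq2 47, 3 covariates 13. ZT17 against ZT5 (318): DESeq2 626, no filter 181. ZT23 against ZT11 (1789): 96, 71 and 31 with position, muscle and 3 covariates. The vancomycin difference (61): DESeq2 205. The GF difference (20): DESeq2 276, total counts 10, no filter 1, PBS alone 10, B cell covariate 33, muscle covariate 31, 3 covariates 58. Without ZT11 replicates 3 and 4 the time-of-day, cosine, alternation and ZT23 against ZT11 counts were 440, 472, 14 and 120, and the GF difference 2. The cause of these moves was not tested.

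Leaving out each library gave 672 to 1933 genes for time of day (lowest without ZT11 replicate 3), 1013 to 2322 for the cosine, 3 to 18 for the alternation, 98 to 446 for ZT17 against ZT5 (lowest without ZT17 replicate 3), 703 to 2144 for ZT23 against ZT11, 40 to 83 for the vancomycin difference and 1 to 41 for the GF difference (lowest without ZT23 replicate 1).

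The peak moved by over 6 h for Sst (amplitude 0.0829 with the muscle covariate, 0.116 with 3 covariates), Scg2 (0.0768 and 0.0607) and Fabp6 (0.352 without ZT17 replicate 4, and up to 1.42 without ZT17 replicate 3).

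Deviations of same-numbered replicates had a median correlation of 0.00669, over 0.1 in 5 of 24 pairs (12 of 72 pairs of different number). This check cannot settle whether the numbers pair samples, and the labels do not say. With the replicate block 1303 genes were called for time of day. The combined covariates and the joint removal of 2 libraries were chosen after seeing the data.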
